A study of Mus musculus with 6 samples.

Results

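Receptors for small transmitters, lipid mediators and peptide hormones were followed in whole adrenal glands of mice that lack the Hippo kinases MST1 and MST2 in steroid-producing cells. The set held every gene whose symbol places it among the adrenergic, muscarinic, serotonin, P2Y, prostaglandin E2, endothelin, VIP, sphingosine-1-phosphate, lysophosphatidic acid, vasopressin, neuropeptide Y, somatostatin, melanocortin (other than the ACTH receptor) or adenosine receptors. Of the 19505 genes with a symbol on the array, 62 belonged to it, each measured by 1 probe set. Adenosine receptor genes, and Ednra, Adrb3, Adra2a and P2ry14, were not analysed here.

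All 6 animals were females aged 2 months, with 1 Affymetrix whole-transcript array per animal. Control mice (n = 3) had the genotype Mst1flox/flox;Mst2flox/flox. Mutant mice (n = 3) were Mst1flox/flox;Mst2flox/flox;Nr5a1-cre, where the Cre is driven by Nr5a1 sequences and so is limited within the gland to steroidogenic cells. Both groups therefore carried the floxed alleles, and no animal with the Cre transgene alone was part of the comparison. Whole glands were used, so each value mixes cortex, medulla, capsule, vessels and any attached fat, and fewer cells of a type cannot be told apart from less RNA per cell. The adrenal label was borne out by the arrays, with 10 of 10 cortical markers and 9 of 10 chromaffin markers above the background probe sets. The exception was the chromaffin gene Phox2a.

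G protein-coupled receptors sit in the plasma membrane and pass the binding of a ligand to heterotrimeric G proteins. Those coupled to Gs raise cyclic AMP, those coupled to Gi lower it, and those coupled to Gq release calcium. In the adrenal, cyclic AMP and calcium drive steroid output, and paracrine transmitters, peptides and lipids from chromaffin cells, nerves, mast cells and vessels act beside ACTH and angiotensin. Lysophosphatidic acid and sphingosine-1-phosphate are also known as serum lipids whose receptors restrain the Hippo kinases downstream of MST1 and MST2.

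Past a limma adjusted p of 0.05 there were 0 of the 62 receptor genes, beside 16 of 22206 probe sets (0.0721%). At an unadjusted limma p under 0.05 there were 11 members (17.7%, with 6 higher and 5 lower in mutants), beside 10.4% of all probe sets (5.42% higher and 4.96% lower). Mutants and controls did not overlap for 10 members (16.1%, 7 higher and 3 lower), beside 16.4% of all probe sets (8% higher and 8.36% lower). Changes over 2-fold were measured for 2 members, Ptger2 and Npy2r, beside 0.977% of all probe sets, and the median size of the log2 change, without its sign, was 0.27 over the members and 0.17 over all probe sets. The median log2 change (mutant minus control) was -0.01 over the members and -0.01 over all probe sets, and 30 members were higher and 32 lower, beside 48.0% of all probe sets with a change above 0. For 50 of the 62 the 95% interval of the change lay within a 2-fold difference in either direction, and the other 12 had intervals that reached beyond it.

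Most of these receptor genes gave a dim signal in the whole gland. The 23 background probe sets of the array ranged up to a log2 signal of 7.32, and 13 of the 62 members (21.0%) had a mean above it in at least 1 group, beside 46.6% of all probe sets. These 13 were Ednrb, Lpar1, Lpar4, Lpar6, Npy1r, Npy2r, P2ry6, P2ry12, Ptger1, S1pr1, S1pr2, S1pr3 and Sstr2. Of them 5 had an unadjusted p under 0.05 (38.5%), where probe sets above background in a group gave 13.6%. Of the 49 members within the background range 6 did (12.2%), where such probe sets gave 7.59%. For these 49 a difference may be understated, since part of the signal is not told apart from background.

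**Figure D1:**
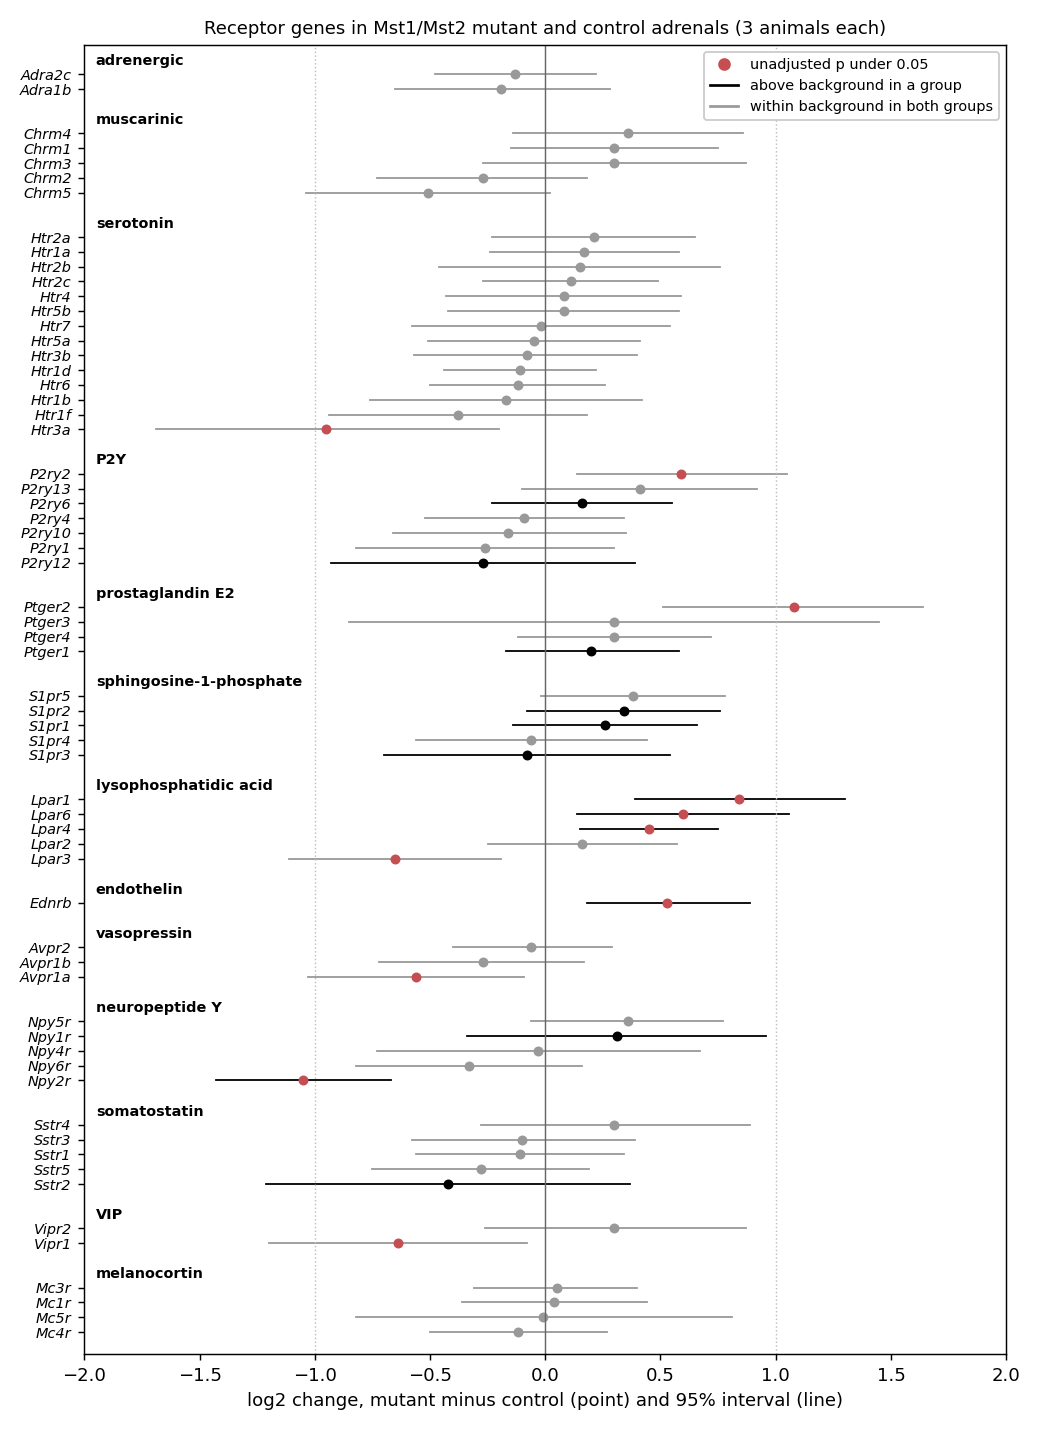
Log2 change (mutant minus control, points) with its 95% interval (lines) for each of the 62 receptor genes, by receptor family; red points have an unadjusted limma p under 0.05, and grey intervals belong to genes within the background range in both groups. The intervals of 11 genes leave out 0, and that of Npy2r, centred on -1.05, has the smallest adjusted p, 0.0667.

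The 5 members above background with an unadjusted p under 0.05 were Npy2r, Lpar1, Ednrb, Lpar4 and Lpar6. Their promoters are shown because the results turn on these genes: each line gives the 250 bases before the transcription start in RefSeq (build GRCm38.p6), 5′ to 3′ on the gene's strand, and for Lpar1, with 3 starts in the table, the most upstream one. Capitals mark a match to GGAATG or its reverse complement CATTCC, the core of the site bound by TEAD factors, the DNA-binding partners of YAP and TAZ.
Npy2r (chr3:82548086-82548335, minus strand): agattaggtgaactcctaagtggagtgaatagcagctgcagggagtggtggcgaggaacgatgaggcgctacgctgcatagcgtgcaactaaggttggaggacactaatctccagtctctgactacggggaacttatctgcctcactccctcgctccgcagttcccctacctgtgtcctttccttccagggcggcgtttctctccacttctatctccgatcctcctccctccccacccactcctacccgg
Lpar1 (chr4:58553492-58553741, minus strand): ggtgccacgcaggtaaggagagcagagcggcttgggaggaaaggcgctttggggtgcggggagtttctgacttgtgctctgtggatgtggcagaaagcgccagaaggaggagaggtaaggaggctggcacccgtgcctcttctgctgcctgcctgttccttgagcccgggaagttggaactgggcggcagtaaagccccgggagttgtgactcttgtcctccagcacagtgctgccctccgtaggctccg
Ednrb (chr14:103843702-103843951, minus strand): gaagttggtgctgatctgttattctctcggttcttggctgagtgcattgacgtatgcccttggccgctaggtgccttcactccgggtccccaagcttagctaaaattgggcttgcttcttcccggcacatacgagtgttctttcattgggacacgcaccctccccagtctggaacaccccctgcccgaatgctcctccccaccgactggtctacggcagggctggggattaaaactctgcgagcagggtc
Lpar4 (chrX:106920375-106920624, plus strand): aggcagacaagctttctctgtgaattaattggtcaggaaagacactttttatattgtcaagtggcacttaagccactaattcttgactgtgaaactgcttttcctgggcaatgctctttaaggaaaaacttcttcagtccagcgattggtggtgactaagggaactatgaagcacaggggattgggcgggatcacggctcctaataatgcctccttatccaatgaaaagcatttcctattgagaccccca
Lpar6 (chr14:73237641-73237890, plus strand): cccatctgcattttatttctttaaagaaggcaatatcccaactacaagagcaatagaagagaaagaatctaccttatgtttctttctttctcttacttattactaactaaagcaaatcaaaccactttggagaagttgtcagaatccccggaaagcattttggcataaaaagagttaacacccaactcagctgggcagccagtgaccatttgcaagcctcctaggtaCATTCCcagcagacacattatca

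A match appeared in the Lpar6 window, 23 bases before the start, and in none of the other windows printed. RefSeq windows were matched by symbol for 49 of the 62 members, 57 windows in all, and 4 of these (7.02%, in Htr1a, Htr1d, Htr2b and Lpar6) held GGAATG or CATTCC. Over all 32851 RefSeq windows of the same length the share was 12.6%. The core of the NR5A1 site, AAGGTCA or its reverse complement TGACCTT, was in 0 member windows and in 4.08% of all windows. Both strands were searched, no member window held both motifs, and a match of a short motif describes the letters only.

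Among the lipid receptors, the lysophosphatidic acid family held the most members with an unadjusted limma p under 0.05. They were 4 of 5 (3 higher and 1 lower in mutants), beside 10.4% of all probe sets. That share of all probe sets also stands beside the other family counts below. Past the threshold there were 0 of the 5. Lpar1, a broadly expressed receptor of fibroblasts and Schwann cells that couples to several G proteins, measured 10.11, 9.86 and 10.08 log2 units in controls and 10.63, 10.70 and 11.25 in mutants. All mutants lay above all controls, and mutant 3 was the highest. The log2 change was 0.84 (SE 0.20, 95% interval 0.39 to 1.30, 1.79-fold), and it did not pass (limma adjusted p = 0.193).

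Lpar4 and Lpar6 belong to the second, P2Y-like branch of lysophosphatidic acid receptors and have known roles in vessels. Lpar4 measured 9.02, 9.00 and 9.04 in controls and 9.49, 9.43 and 9.49 in mutants. The animals of each group were tightly placed and the groups did not overlap, and their means differed by 0.45 log2 units (SE 0.13, limma adjusted p = 0.308). Lpar6 measured 8.25, 8.11 and 8.33 in controls and 8.80, 9.20 and 8.49 in mutants. Its groups were also apart, with mutant 3 close to the controls (log2 change 0.60, SE 0.20, limma adjusted p = 0.358). In RefSeq the Lpar6 gene overlaps the span of Rb1, as P2ry12 and P2ry13 overlap Med12l and Sstr2 overlaps Slc39a11. Whether their probes also read the other gene was not tested.

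Lpar3, known for its part in embryo implantation, lay within the background range and went the other way. It measured 4.91, 4.96 and 5.26 in controls and 4.04, 4.70 and 4.45 in mutants, which did not overlap (log2 change -0.65, SE 0.20, limma adjusted p = 0.33). Lpar2, also within the background range, differed by 0.16 (SE 0.18).

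**Figure D2:**
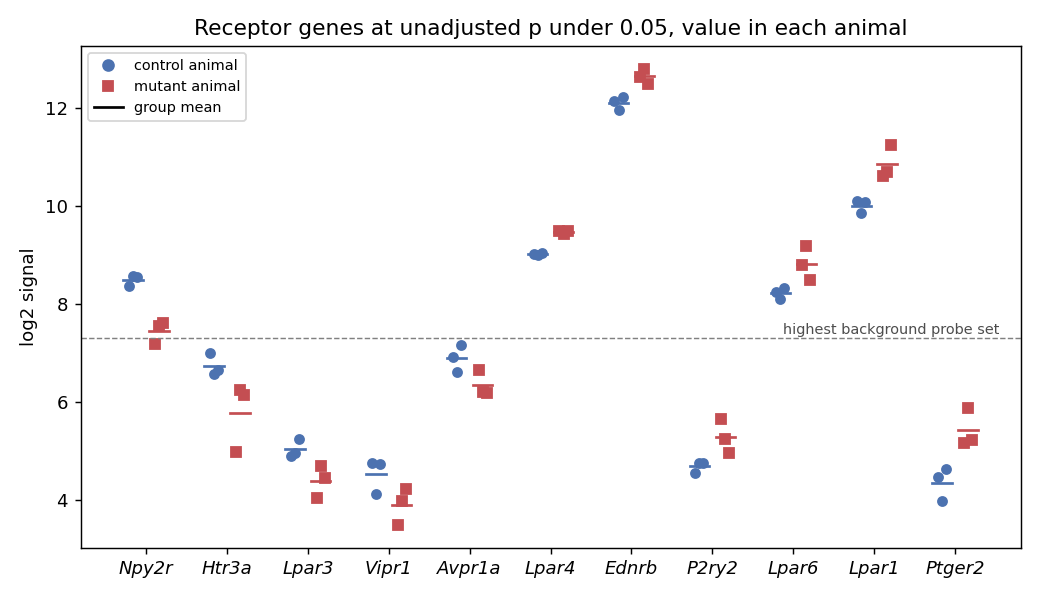
Log2 signal in each of the 3 control (blue circles) and 3 mutant animals (red squares) for the 11 receptor genes at an unadjusted p under 0.05, ordered by their log2 change, with group means as bars; the dashed line is the highest background probe set, 7.32. Controls and mutants overlap for Vipr1 and Avpr1a and not for the other 9, and signals of different genes come from different probes and are not comparable with each other.

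The sphingosine-1-phosphate receptors had 0 of 5 members at an unadjusted limma p under 0.05. S1pr1, the Gi-coupled receptor of endothelium and of lymphocyte egress, measured 7.84, 7.58 and 7.70 in controls and 8.24, 7.76 and 7.90 in mutants (log2 change 0.26, SE 0.17, limma adjusted p = 0.674), and mutant 2 lay below control 1. S1pr2, a receptor of the same lipid that couples to several G proteins, differed by 0.34 (SE 0.18), with controls at 7.09, 7.04 and 7.36 and mutants at 7.27, 7.45 and 7.79. S1pr3, a receptor of vascular smooth muscle and endothelium, measured 9.31, 9.13 and 8.85 in controls and 9.48, 9.14 and 8.42 in mutants (log2 change -0.08, SE 0.27). The highest and the lowest animal were both mutants. The interval of the S1pr3 change, -0.70 to 0.54, left room for a difference of either sign. S1pr4 and S1pr5 were within the background range, at -0.06 and 0.38, and of the family S1pr5 alone had no overlap between groups.

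All 4 prostaglandin E2 receptor genes had changes above 0, from 0.20 to 1.08. Ptger2, the Gs-coupled EP2 receptor, had the greatest log2 change among the 62 members, with 4.47, 3.98 and 4.63 in controls and 5.18, 5.89 and 5.24 in mutants. The groups were apart and the change was 1.08 (SE 0.25, 95% interval 0.51 to 1.64, limma adjusted p = 0.191), although every value lay within the background range. Ptger1 and Ptger4 differed by 0.20 (SE 0.16) and 0.30 (SE 0.18).

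Ptger3, the Gi-coupled EP3 receptor that is abundant in fat cells, had the greatest SE of the 62 members. It measured 6.42, 7.05 and 7.31 in controls and 8.48, 6.87 and 6.33 in mutants. Mutant 1 was the highest and mutant 3 the lowest animal, and the change was 0.30 (SE 0.50, limma adjusted p = 0.882). Adipocyte markers, as a mean of 10 genes, stood in the same order within each group, at 8.01, 9.66 and 10.91 in controls and 12.13, 9.77 and 9.21 in mutants. With each array's adipocyte mean as a covariate the Ptger3 change was -0.15, and without mutant 1 it was -0.33. The part of fat in this result was not tested otherwise.

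Of the receptors for peptides, Npy2r and Ednrb had the smallest p. Ednrb, the endothelin receptor of endothelial cells and of neural crest derivatives, measured 12.15, 11.97 and 12.24 in controls and 12.65, 12.81 and 12.50 in mutants. The groups did not overlap, and the log2 change was 0.53 (SE 0.16, 95% interval 0.18 to 0.89, limma adjusted p = 0.305).

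Npy2r, a Gi-coupled receptor for neuropeptide Y and peptide YY best known on nerve endings, was the member nearest to the threshold. It measured 8.38, 8.57 and 8.56 in controls and 7.20, 7.55 and 7.61 in mutants. Every mutant was below every control, and mutant 1, at 7.20, was below the highest background probe set. The mean went from 8.50 ± 0.10 to 7.45 ± 0.22 (SD, n = 3 each), a log2 difference of -1.05 (SE 0.16, 95% interval -1.43 to -0.67, 2.07-fold lower, limma adjusted p = 0.0667). It passed with a variance prior that follows the signal level (limma adjusted p = 0.0311). It also passed when only the brighter probe sets were tested (limma adjusted p = 0.0297). These settings passed more of the whole array too, 0.788% and 0.829% of probe sets, beside 0.0721% in the main fit. Over all alternatives the limma adjusted p of Npy2r ranged from 0.0297 to 0.253.

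The other neuropeptide Y receptors differed by -0.33 to 0.36. Npy1r, which mediates vasoconstriction, was above background, at 9.28, 8.83 and 9.39 in controls and 9.93, 8.86 and 9.64 in mutants (log2 change 0.31, SE 0.28, limma adjusted p = 0.769). Control 2 and mutant 2 were the lowest animals of their groups. Npy itself, the ligand made by chromaffin cells and nerves, measured 13.77, 14.32 and 12.92 in controls and 13.21, 13.35 and 12.63 in mutants, with overlapping groups (log2 change -0.61, SE 0.35, limma adjusted p = 0.606).

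The vasopressin receptor genes were all lower, by 0.06 to 0.56 log2 units, and all within the background range. Avpr1a, the Gq-coupled receptor through which vasopressin acts on vessels and on the adrenal cortex, measured 6.93, 6.63 and 7.18 in controls and 6.66, 6.21 and 6.19 in mutants. Mutant 1 lay above control 2, and the change was -0.56 (SE 0.20, limma adjusted p = 0.397). Vipr1 and Vipr2, receptors of VIP and PACAP coupled to Gs, had changes of opposite sign within the background range. Vipr1 measured 4.77, 4.13 and 4.74 in controls and 3.50, 3.99 and 4.23 in mutants (log2 change -0.64, SE 0.25, limma adjusted p = 0.423). Vipr2 differed by 0.30 (SE 0.25).

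Of the 5 somatostatin receptor genes 4 were lower, and 0 had an unadjusted limma p under 0.05. Sstr2, the receptor bound by most clinical somatostatin analogues, measured 7.42, 8.37 and 7.20 in controls and 7.65, 7.38 and 6.70 in mutants. The groups overlapped, control 2 stood well above the rest, and the change of -0.42 (SE 0.34, limma adjusted p = 0.736) became -0.07 without that animal. The 4 melanocortin receptor genes, Mc1r, Mc3r, Mc4r and Mc5r, had changes from -0.12 to 0.05, all within the background range.

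Receptors for amines and acetylcholine were within the background range throughout, which covers 21 genes. Of the 14 serotonin receptor genes 6 were higher and 8 lower, from -0.95 to 0.21. Htr3a was the serotonin member with an unadjusted p under 0.05. It encodes a ligand-gated ion channel, as does Htr3b, and both entered the set through their symbols and are no G protein-coupled receptors. Htr3a measured 7.00, 6.58 and 6.66 in controls and 4.98, 6.25 and 6.15 in mutants, with no overlap and with mutant 1 far below the others. Its change of -0.95 (SE 0.33, limma adjusted p = 0.371) was -0.54 without mutant 1.

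Htr4, through which serotonin stimulates aldosterone output in the human adrenal, measured 6.96, 6.56 and 6.14 in controls and 6.82, 6.58 and 6.50 in mutants. The controls spanned a wider range than the mutants and enclosed them, with a change of 0.08 (SE 0.22, 95% interval -0.43 to 0.59). Htr7, also Gs-coupled, differed by -0.02 (SE 0.25). Adra1b and Adra2c, the adrenergic receptor genes measured here, differed by -0.19 (SE 0.20) and -0.13 (SE 0.15). The 5 muscarinic receptor genes ranged from -0.51 (Chrm5, SE 0.23) to 0.36 (Chrm4, SE 0.22).

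The P2Y nucleotide receptors had 1 of 7 members at an unadjusted p under 0.05. P2ry2, which responds to ATP and UTP, measured 4.56, 4.77 and 4.77 in controls and 5.66, 5.25 and 4.96 in mutants, all within the background range and without overlap (log2 change 0.59, SE 0.20, limma adjusted p = 0.361). P2ry12, the ADP receptor of platelets and microglia, measured 7.43, 6.93 and 7.88 in controls and 7.55, 7.18 and 6.70 in mutants, which overlapped (log2 change -0.27, SE 0.29). P2ry6, a receptor for UDP, was above background and differed by 0.16 (SE 0.17).

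**Figure D3:**
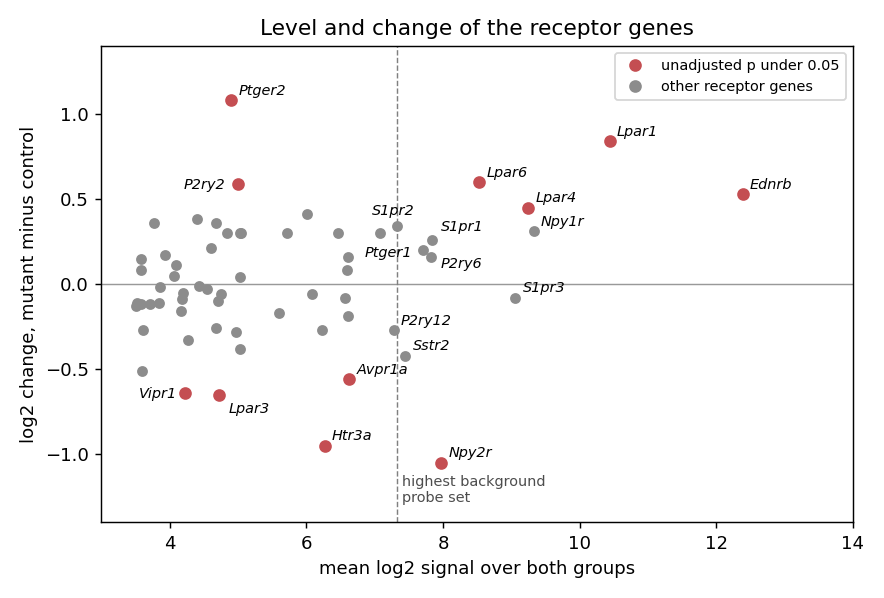
Log2 change (mutant minus control, vertical axis) against the mean log2 signal over both groups (horizontal axis) for the 62 receptor genes, with those at an unadjusted p under 0.05 in red; the dashed line is the highest background probe set, 7.32. Of the 5 red points right of the line 4 lie above 0 (Lpar1, Lpar6, Lpar4 and Ednrb) and Npy2r lies below it.

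Grouped by the G protein each receptor is best known to use, an assignment made after the values were seen, the 23 Gi-coupled genes had a median log2 change of -0.10 with 1 at an unadjusted p under 0.05 (Npy2r). The 14 Gq-coupled genes had a median of 0.13 with 2 (P2ry2 and Avpr1a), and the 12 Gs-coupled genes a median of 0.02 with 2 (Ptger2 and Vipr1). The 11 genes that use several or other G proteins, which are the lysophosphatidic acid receptors, Ednrb, P2ry10 and the sphingosine-1-phosphate receptors other than S1pr1, had a median of 0.34 with 5. Of these 5, 4 were higher and Lpar3 was lower, and 4 are the lysophosphatidic acid genes already given above. The shares at an unadjusted limma p under 0.05 were 4.35% (Gi), 14.3% (Gq), 16.7% (Gs) and 45.5% (several or other). All probe sets gave 10.4% and a median of -0.01. Differences between these classes were not tested.

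Genes that make or release the ligands showed 0 of 30 past the threshold, beside 0.0721% of all probe sets. At an unadjusted limma p under 0.05 there were 9 (30%, 4 higher and 5 lower), beside 10.4% of all probe sets. Their median change was -0.12, beside -0.01 over all probe sets. Ptges, the inducible prostaglandin E synthase, measured 9.32, 9.47 and 9.23 in controls and 11.07, 10.86 and 10.15 in mutants, well apart (log2 change 1.35, SE 0.24, limma adjusted p = 0.0989). Ptgs2, the cyclooxygenase upstream of it, had a change of -1.21 (SE 0.51, limma adjusted p = 0.465) with overlapping groups. It was named after its values were seen, as were Npy, Edn1 and Edn3.

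Sphk2, a sphingosine kinase, measured 11.03, 10.80 and 10.95 in controls and 10.38, 10.25 and 10.26 in mutants (log2 change -0.63, SE 0.14, limma adjusted p = 0.185). Ece1, which cleaves the endothelin precursors, measured 12.06, 12.23 and 12.10 in controls and 11.49, 11.55 and 11.73 in mutants (log2 change -0.54, SE 0.15, limma adjusted p = 0.266). Both groups of each gene were apart. Of the endothelin genes, Edn3 differed by -0.34 (SE 0.24), and Edn1, within the background range, by 0.46 (SE 0.21). Genes that clear the ligands showed 0 of 19 past the threshold. At an unadjusted limma p under 0.05 there was 1 (5.26%), beside 10.4% of all probe sets. It was the amine oxidase Maoa (log2 change 0.35, SE 0.15). The next by p were the serotonin transporter Slc6a4 (-0.80, SE 0.43) and the phosphatase Sgpp1 (-0.26, SE 0.17).

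Of the 13 G protein alpha subunit genes 4 were higher and 9 lower, with 0 past the threshold. At an unadjusted limma p under 0.05 there were 3 (23.1%), beside 10.4% of all probe sets. Gnal, which encodes the Gs-like subunit of olfactory and striatal neurons, measured 5.38, 5.89 and 5.45 in controls and 6.51, 6.67 and 6.64 in mutants (log2 change 1.03, SE 0.18, limma adjusted p = 0.0872), within the background range. Gnas, encoding Gs itself, measured 16.60, 16.58 and 16.35 in controls and 16.15, 16.11 and 16.26 in mutants (log2 change -0.34, SE 0.15, limma adjusted p = 0.476). Gnai1, a Gi subunit, differed by -0.55 (SE 0.20). The 14 beta and gamma subunit genes had a median change of 0.01 and 0 at an unadjusted limma p under 0.05, the 3 with the smallest p being Gnb4 (0.33, SE 0.20), Gng2 (0.33, SE 0.21) and Gnb5 (-0.23, SE 0.15).

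Among 5 receptor kinase and arrestin genes, Grk5, which phosphorylates active receptors, measured 10.06, 9.80 and 10.11 in controls and 10.73, 10.63 and 11.23 in mutants. The groups were apart (log2 change 0.87, SE 0.20, limma adjusted p = 0.183), whereas Arrb1 (0.29, SE 0.17) and Grk6 (-0.25, SE 0.18) overlapped. Of 19 RGS genes, which speed the shut-off of G proteins, 0 passed. At an unadjusted limma p under 0.05 there were 4 (21.1%), beside 10.4% of all probe sets. The 4 include Rgs16 (log2 change 1.01, SE 0.19, within the background range), the pericyte gene Rgs5 (0.78, SE 0.20) and Rgs7 (-0.67, SE 0.23). The mutant mean of Rgs7, 6.85, lay within the background range. Of 48 related receptors outside the set 0 passed. An unadjusted limma p under 0.05 was found for 10 (20.8%, 6 higher and 4 lower), beside the same 10.4%. The lysophosphatidylserine receptor Gpr34 had a change of 1.32 (SE 0.22, limma adjusted p = 0.0795), the neurokinin receptor Tacr2 -0.66 (SE 0.14, limma adjusted p = 0.167) and Agtr1b -1.21 (SE 0.27). The control mean of Gpr34, 6.41, and the mutant mean of Agtr1b, 6.72, lay within the background range.

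Markers of other cell types are given beside the receptors, by how many were higher or lower in mutants. Of these markers 0 passed the limma threshold. An unadjusted limma p under 0.05 was found for 6 endothelial, 4 smooth muscle and pericyte, 4 fibroblast and 2 macrophage genes. It was also found for 2 mast cell, 1 chromaffin and 1 adrenocortical gene. All probe sets gave 10.4% at that level. Endothelial markers were higher for 11 of 12 genes, and 12 of 12 were above background. Their list means were 11.29 to 11.49 in controls and 11.73 to 11.86 in mutants. Fibroblast markers were higher for 9 of 10 genes, at 9.82 to 10.39 and 10.22 to 11.24, all above background. Smooth muscle and pericyte markers were higher for 8 of 10, at 8.58 to 8.85 and 9.01 to 9.45, with Myh11, Cnn1, Cspg4 and Notch3 within the background range. Macrophage markers were higher for 9 of 9, at 9.41 to 9.50 and 9.53 to 10.09, with Adgre1, Cd163 and Cx3cr1 within the background range. Chromaffin markers were higher for 0 of 10, at 12.57 to 13.59 and 12.59 to 12.68, and control 2 stood highest.

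Lymphocyte markers were higher for 6 of 9 (5.46 to 5.59 in controls, 5.43 to 5.77 in mutants) with 7 of 9 within the background range, and Schwann and glial markers for 2 of 6 (4.69 to 4.91 and 4.54 to 4.78) with 6 of 6 within it. Mast cell markers were higher for 2 of 7 (7.27 to 7.40 and 6.94 to 7.19), with Mcpt4, Cma1, Ms4a2 and Tpsb2 within the background range. Adrenocortical markers were higher for 2 of 10 (17.54 to 17.57 and 17.34 to 17.53). Adipocyte markers were higher for 10 of 10 genes with wide overlap (8.01 to 10.91 and 9.21 to 12.13), and Lep was within the background range. The part of these cell types in the receptor values was not tested, except with the adipocyte mean as a covariate. With that covariate 10 members had an unadjusted limma p under 0.05, beside 8.84% of all probe sets. Without it 11 members did, beside 10.4%.

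**Figure D4:**
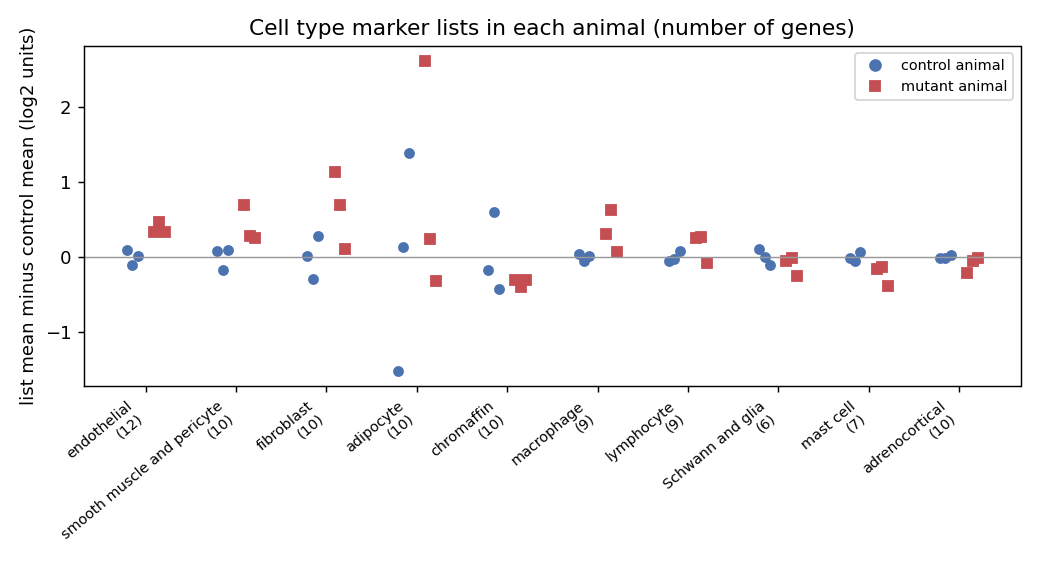
Mean log2 signal of each marker list in each animal, minus the mean of the 3 controls, for control (blue circles) and mutant animals (red squares), with the number of genes in parentheses. Endothelial, smooth muscle and macrophage lists are higher, and mast cell and adrenocortical lists lower, in every mutant than in every control. The gap is narrow for the macrophage list (highest control 9.50, lowest mutant 9.53) and for the adrenocortical list (lowest control 17.54, highest mutant 17.53). The adipocyte list has the widest range of the 10 lists in both groups (8.01 to 10.91 in controls, 9.21 to 12.13 in mutants).

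The values were limma's moderated test over 6 arrays, adjusted over 22206 probe sets, and the number of animals limits their precision. The 6 members that kept an unadjusted p under 0.05 in every alternative that tested them were Ednrb, Lpar1, Lpar3, Lpar4, Npy2r and Ptger2. The alternatives refitted the same arrays and are no independent support, and the same count over all probe sets was not made. Lpar3 and Ptger2 lay within the background range and were left out by the filter on level.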

How the data were processed

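RNA of 6 whole adrenal glands was measured on Affymetrix whole-transcript arrays. The authors deposited 1 table of log2 signals with a column for each animal. Transcriptome Analysis Console 4.0 appears in the submitters' processing notes, while how signals were background-corrected, summarised and normalized is not stated in any source used here. Array medians lay between 6.76 and 6.83. After removal of 6640 control probe sets, 22206 were tested, of which 19572 have 1 gene symbol in the platform annotation, 0 several and 2634 none; all 62 member symbols matched the RefSeq table of GRCm38.p6. Mean intron control signals were 5.40 to 5.84 in controls and 5.45 to 5.73 in mutants.

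The difference of mutant from control was estimated by limma 3.58.1 in R 4.3.3 (lmFit, eBayes), two-sided, without covariates, and Benjamini-Hochberg adjusted over the 22206 probe sets; SEs and 95% intervals are the moderated ones. The procedure was tested on simulated data. Labels give each animal as a separate sample. Members and lists were chosen with earlier results of these data known. Named were members at an unadjusted p under 0.05, the 5 greatest rises and falls above background, fixed receptors of adrenal interest, and up to 3 genes of smallest p per pathway list; Ptgs2, Npy, Edn1, Edn3, Npy1r and the remaining members were named to complete families. A mean above the highest of 23 background probe sets was called above background. Promoters are RefSeq's. Alternatives were other normalizations, a dim filter, variance priors, array weights, covariates, the replicate block and each animal left out.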

Additional observations from a re-analysis of the deposited data

How the results depend on the processing

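The count of 0 receptor genes past a limma adjusted p of 0.05 held after quantile normalization, with arrays shifted to 1 median and with array weights. It also held with either covariate and with each animal left out (0 to 0). Averaging probe sets per gene also gave 0, but it could not alter the member values, since each member has 1 probe set. The count was 1, Npy2r, with a trend and robust variance prior, with only probe sets above the median level, and at a threshold of 0.1. Over the whole array that variance prior passed 0.788% of probe sets and the filter on level 0.829%, beside 0.0721% in the main fit. The filter on level left 14 members, of which 5 had an unadjusted limma p under 0.05, beside 15.5% of all probe sets it kept. The 14 had a median change of 0.28, beside -0.02 over those probe sets. Leaving out each animal gave 8 to 14 members at an unadjusted limma p under 0.05, beside 7.63% to 11.6% of all probe sets. The median change was -0.04 to 0.08 over the members and -0.02 to -0.01 over all probe sets.

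Replicate numbers are shared by the groups, but the labels do not say that they pair animals, so the numbers were not taken as pairs. Deviations of same-numbered animals from their group means had correlations of -0.09, 0.08 and -0.07 over probe sets. With 3 animals per group these values cannot exclude a pairing. With the replicate block 0 members passed, and 12 had an unadjusted limma p under 0.05, beside 9.26% of all probe sets. The median change was -0.01, and probe sets past the threshold over the whole array numbered 1 in place of 16.

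Of the 20 named members 16 kept their direction in all alternatives that tested them. The exceptions were Htr4 (-0.03 with array weights, and -0.13 to 0.28 with each animal left out), Ptger3 (-0.15 with the adipocyte covariate, and -0.33 to 0.75), Htr7 (-0.23 to 0.18) and S1pr3 (-0.31 to 0.21); the cause was not tested. Dim signal limits the 49 members within the background range.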
